A study of Mus musculus with 3 samples.

Results

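Vascular endothelial growth factor (VEGF) signalling was followed through 9 genes, of 27998 genes listed, in lung cells of a mouse mammary cancer model. The genes are the ligands Vegfa, Vegfb, Vegfc and Figf (the VEGF-D gene, named Vegfd in current annotation), the receptors Flt1, Kdr and Flt4 (VEGF receptors 1 to 3) and the co-receptors Nrp1 and Nrp2. They were chosen by name and not by their values. The cells came from lungs of MMTV-HER2/Neu mice on the FvB background, in which a mammary tumour virus promoter drives the Neu (HER2) oncogene in mammary epithelium. CD45-negative cells, which excludes leukocytes, were sorted by HER2 and put through droplet single-cell RNA sequencing (10X Chromium 3' chemistry). The early HER2-negative and early HER2-positive libraries came from mice of 14 to 18 weeks with no palpable tumour, and the late HER2-positive library from mice of over 20 weeks with primary tumours. The submitters label the HER2-negative cells as non-cancer lung cells and the HER2-positive cells as breast cancer cells. Each group is 1 library, and the number of mice in it is not given in the sources used here. Stage, age, sort and library therefore cannot be told apart, and no test between groups was possible.

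VEGF ligands are secreted proteins that bind receptor tyrosine kinases on endothelial cells and drive their growth, survival and permeability. VEGF-A acts mainly through Kdr, while Flt1 binds VEGF-A and VEGF-B tightly with weaker kinase output and can act as a decoy. VEGF-C and VEGF-D act on Flt4, the receptor best known for lymphatic vessels, and neuropilins hold ligand at the cell surface beside the kinase receptors. In the lung alveolus, VEGF-A from the epithelium is known to support aerocytes, the Car4-positive capillary cells that lie against the gas-exchange surface and express Kdr strongly.

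Barcodes with at least 1000 unique molecular identifiers (UMIs, 1 per captured RNA molecule) and under 25% mitochondrial UMIs were kept as cells. The libraries are called early negative, early positive and late positive below, by stage and HER2 sort, and values for all 3 are given in that order. They kept 6416, 7622 and 6012 cells, with median depths of 3166, 5318 and 8075 UMIs. The libraries shared 10 to 18 cell barcodes in each pair, against 5.68 to 7.20 given by chance, and shared barcodes were kept. Each cell was put in the first class whose rule it met: mammary (Csn3 and Wfdc18 at least 1% of UMIs), alveolar type 2 (AT2, Sftpc at least 10%), alveolar type 1 (AT1, at least 4 UMIs of Ager and Rtkn2), or, each at 2 UMIs or more, aerocyte (Car4), other endothelial (Cldn5 and Cdh5), mural (Higd1b, Cox4i2 and Myh11) and fibroblast (Pdgfra and Col1a2). The class rules used none of the 9 genes. Other endothelial cells were the largest class of the early negative library, with 4380 cells, against 1207 in the early and 402 in the late positive library. AT2 cells were the largest class of the positive libraries, with 3939 early and 3996 late cells. The mammary rule was met by 161 late cells and by 0 of 7622 cells of the early positive library, which allows a share of up to 0.0394%. The label of breast cancer cells was thus not borne out by mammary markers for most HER2-positive cells. Levels and ratios were taken over classes with at least 50 cells in a library, which left out AT2 (46 cells) and AT1 (49 cells) of the early negative library. Subdivisions of a class are described at any size, with AT1 cells of that library among them.

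The class names were checked against marker genes outside the rules. Every marker on the class's own list reached 10 counts per 1000000 UMIs (CPM) in AT2, AT1, aerocyte, other endothelial, mural and fibroblast cells of each library used, and 6 of 7 did so in mammary cells. This bar is low: all 6 AT2 markers also reached it in early positive aerocytes, mural cells and fibroblasts. Passing it does not by itself bear out a class name. Genes of airway club cells summed to 6116 CPM in early positive aerocytes, against 1849 CPM for aerocyte and 9845 CPM for endothelial markers. In late other endothelial cells they summed to 5784 CPM, against 10562 CPM for endothelial markers. The AT1 class was not pure by this check: AT2 markers summed to 7750 CPM in early positive and 8964 CPM in late AT1 cells, against 8202 and 8149 CPM for AT1 markers, and mural markers to 2713 and 251.5 CPM. The late AT1 class also held airway club cell RNA: Scgb1a1, the main club cell secretory protein gene, stood at 199437 CPM there against 11882 CPM in early AT1 cells. Cells that met the rules of more than 1 lineage (mammary, alveolar, endothelial, or mural and fibroblast), called mixed lineage below, made up 42.0% of early and 17.6% of late AT1 cells. The same share was 10.4% of early and 2.83% of late AT2 cells, and 10.0% of early and 7.21% of late other endothelial cells of the positive libraries. Values without these cells are given where they change a reading.

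The 9 genes lie on 7 chromosomes of the GRCm38/mm10 build, and Kdr and Flt1 share chromosome 5. By GENCODE vM21, Kdr spans chr5:75932827-75978458 and Flt1 chr5:147561604-147726011, both on the minus strand. Vegfa spans chr17:46016993-46032369 on the minus strand, Vegfb chr19:6982473-6987651 on the minus strand, Vegfc chr8:54077606-54187096 on the plus strand and Figf chrX:164373378-164402650 on the plus strand. Flt4 spans chr11:49609263-49652739, Nrp1 chr8:128358604-128503363 and Nrp2 chr1:62703285-62818695, all on the plus strand. All 9 had a promoter window in the RefSeq table (GRCm38.p6). The stretches just upstream of the start sites of Kdr and Flt1 are shown because these receptors moved together over the cell classes, with every GGAA (or TTCC, its reverse complement) in capitals, the core of the motif bound by ETS factors. That of Vegfa is shown as the ligand that set AT1 cells apart, with every GGGCGG or its reverse complement CCGCCC in capitals, the GC box bound by Sp1. All 3 lie outside annotated exons, at chr5:75978459-75978705 for Kdr, chr5:147726012-147726261 for Flt1 and chr17:46032378-46032627 for Vegfa, and run 5′ to 3′ on the minus strand.
Kdr: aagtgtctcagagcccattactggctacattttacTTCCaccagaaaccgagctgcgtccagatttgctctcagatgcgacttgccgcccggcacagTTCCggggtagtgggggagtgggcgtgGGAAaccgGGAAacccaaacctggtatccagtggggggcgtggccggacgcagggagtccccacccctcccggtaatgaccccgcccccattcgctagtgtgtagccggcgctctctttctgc
Flt1: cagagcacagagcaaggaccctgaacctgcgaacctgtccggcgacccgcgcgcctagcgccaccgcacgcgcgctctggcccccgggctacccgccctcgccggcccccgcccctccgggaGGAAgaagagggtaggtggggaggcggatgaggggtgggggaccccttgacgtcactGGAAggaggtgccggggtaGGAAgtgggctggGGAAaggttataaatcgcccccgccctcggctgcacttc
Vegfa: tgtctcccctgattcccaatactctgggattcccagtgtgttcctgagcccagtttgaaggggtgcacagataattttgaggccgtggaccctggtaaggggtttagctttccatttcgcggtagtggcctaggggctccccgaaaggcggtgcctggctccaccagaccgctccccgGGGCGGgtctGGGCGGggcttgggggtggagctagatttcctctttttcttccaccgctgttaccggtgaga
Kdr and Flt1 each hold 4 copies of GGAA in either orientation, and Vegfa holds 6. Of 32851 mouse promoter windows of 250 upstream bases, 33.4% hold at least 4 and 93.4% at least 1. Vegfa holds 2 GC boxes, as does Kdr, while Flt1 holds 3, and 16.7% of the windows hold at least 2. Capitals mark only the motif named for each stretch. Over the 9 genes, copies of GGAA ran from 1 to 6 and GC boxes from 0 to 5. Neither motif therefore sets the receptors apart from Vegfa. A match is a run of letters and not a bound site, and these data hold no measure of factor binding.

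Vegfa, the central ligand of blood vessel growth, was highest in AT1 cells of both positive libraries and lowest in mural cells. AT1 cells held 1205 CPM (95% Poisson interval 1155 to 1256) in the early positive library and 964 CPM (909 to 1023) in the late one. Intervals here cover counting error only, as there are no replicates. Other endothelial cells came next, with 407, 299 and 523 CPM in the early negative, early positive and late positive libraries. Aerocytes held 145, 125 and 303 CPM and fibroblasts 178, 104 and 92.8 CPM in the same order. AT2 cells held 48.2 CPM early and 62.0 CPM late, mammary cells of the late library 108 CPM, and mural cells between 16.1 and 16.6 CPM. In the early positive library aerocytes and fibroblasts did not differ beyond their counting error, nor did mammary cells and fibroblasts in the late library. AT1 cells were 3.12% of early positive cells and held 39.7% of the Vegfa counts there, while AT2 cells were 51.7% of cells with 25.4% of the counts. In the late library AT1 cells were 1.80% of cells with 20.5% of the Vegfa counts.

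**Figure D1:**
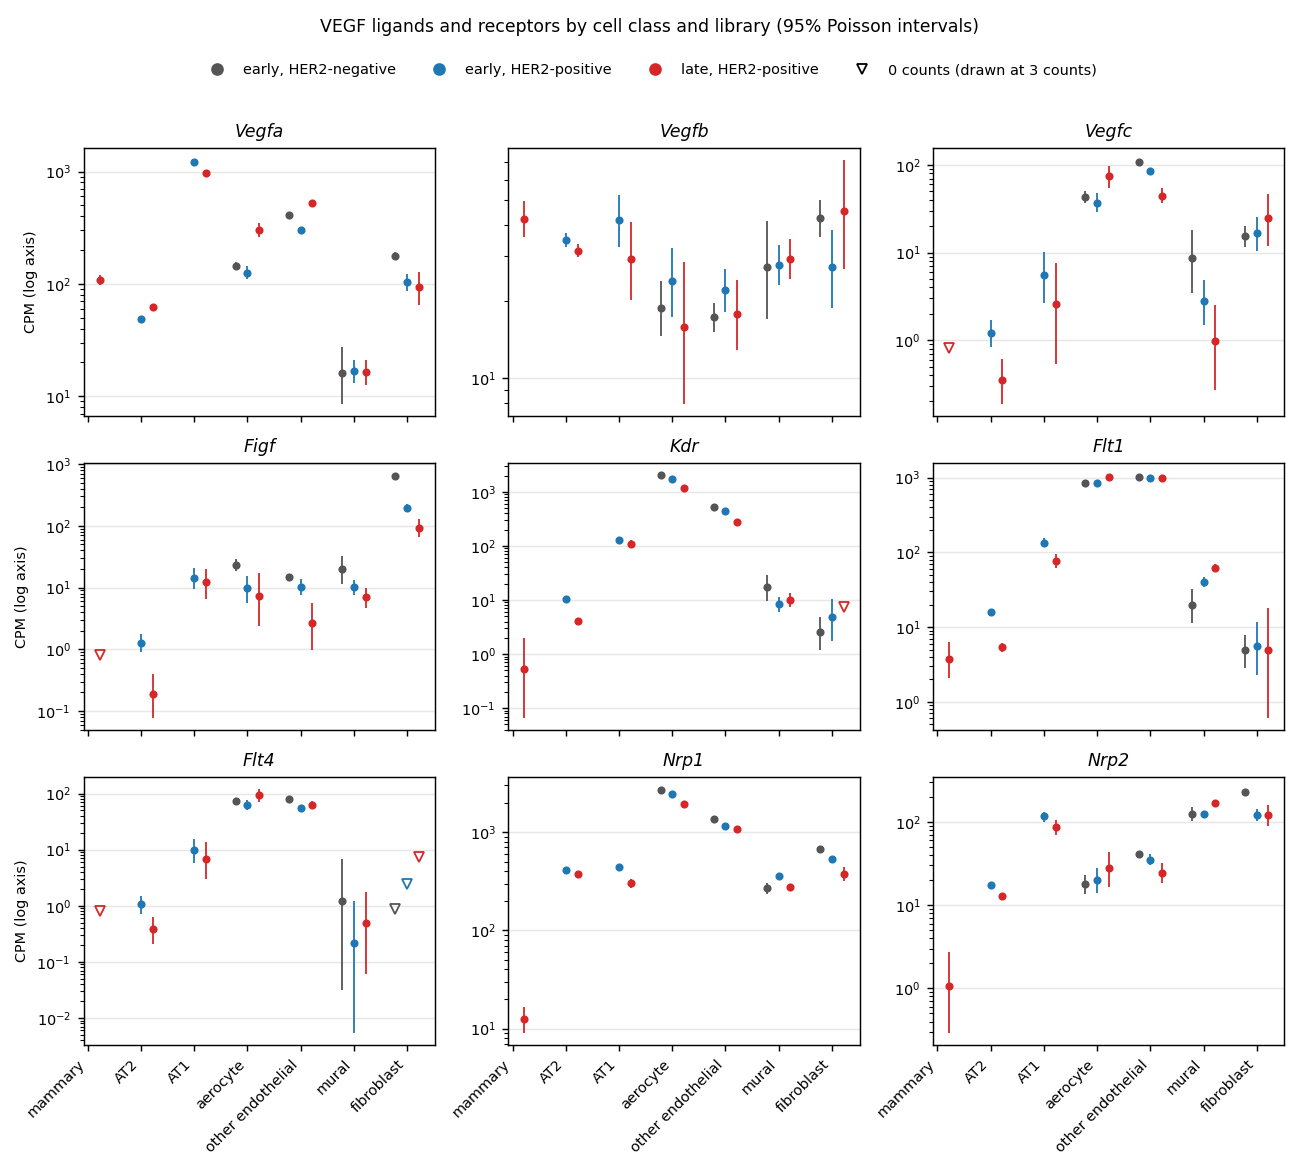
CPM of each of the 9 genes (log axis) by cell class, with 1 point per library (grey early negative, blue early positive, red late positive), bars for 95% Poisson intervals and open triangles for 0 counts drawn at 3 counts. Vegfa peaks in AT1 cells, Figf in fibroblasts, Kdr and Nrp1 in aerocytes, and Flt1 and Flt4 stand high in both endothelial classes.

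Within AT1 cells, Vegfa depended on which other transcripts the cell held. Cells with no second lineage and under 1% of UMIs on Sftpc or Scgb1a1 held 3273 CPM (38 cells), 2466 CPM (117 cells) and 2498 CPM (53 cells) in the early negative, early positive and late positive libraries. Mixed lineage AT1 cells held 595, 510 and 531 CPM. AT1 cells with at least 1% Scgb1a1, the club cell gene, held 52.8 CPM in the late library (21 cells) and 45.4 CPM in the early positive library (4 cells, 2 counts). The subdivisions ran from 45.4 to 2466 CPM within the early positive and from 52.8 to 2498 CPM within the late positive library, against 1205 and 964 CPM over the whole class. They were chosen after values were seen, and each is a range of counts per cell and not a cell type.

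Vegfb, a ligand of Flt1 linked to fatty acid handling, varied little over the named classes of at least 50 cells, from 16.0 to 45.1 CPM. Fibroblasts held 42.4, 27.3 and 45.1 CPM in the early negative, early positive and late positive libraries. Other endothelial cells held 17.4, 22.2 and 17.9 CPM. Most neighbours in the order of classes did not differ beyond their counting error.

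Vegfc, a ligand of Flt4 and of Kdr once processed, was highest in endothelial cells. Other endothelial cells held 107, 84.4 and 44.6 CPM and aerocytes 43.2, 37.2 and 74.0 CPM in the 3 libraries in the same order. Only in the late library did aerocytes stand above other endothelial cells. Other endothelial cells with at least 2 UMIs of Vwf, a gene of veins and larger vessels, held 395 CPM early negative, 225 CPM early positive and 98.8 CPM late. Arterial cells, marked by Gja5 and Bmx, held 20.2, 11.1 and 10.7 CPM, and general capillary cells, marked by Gpihbp1, 66.9, 65.5 and 55.0 CPM. Vegfc in Vwf-positive cells therefore differed between libraries by more than its counting error, whereas the intervals of the general capillary values overlapped. AT2 cells held 1.21 CPM early and 0.355 CPM late, and mammary cells 0 counts.

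Figf was highest in fibroblasts, with 640 CPM early negative, 198 CPM early positive and 92.8 CPM late. The next highest value in a named class of at least 50 cells was 23.2 CPM, in aerocytes of the early negative library. The 49 AT1 cells of that library, too few to be compared, held 28 Figf counts. Fibroblasts held 85.9% of the Figf counts of the early negative library from 10.6% of its cells. They held 56.9% of the counts in the early positive library, from 3.46% of cells. In the late library they held 34.6% from 1.20% of cells, while mural cells held 26.2% from 15.4%. Fibroblasts with Npnt, a gene of the alveolar type, held 799.5, 411 and 255 CPM in the same order of libraries, and made up 77.9%, 42.1% and 30.6% of fibroblasts. Fibroblasts with Pi16, a gene of the adventitial type, held 104, 83.8 and 73.8 CPM. Both the level within Npnt-positive cells and the share of such cells were thus lower in the positive libraries. The late value rests on 72 fibroblasts and 37 counts.

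**Figure D2:**
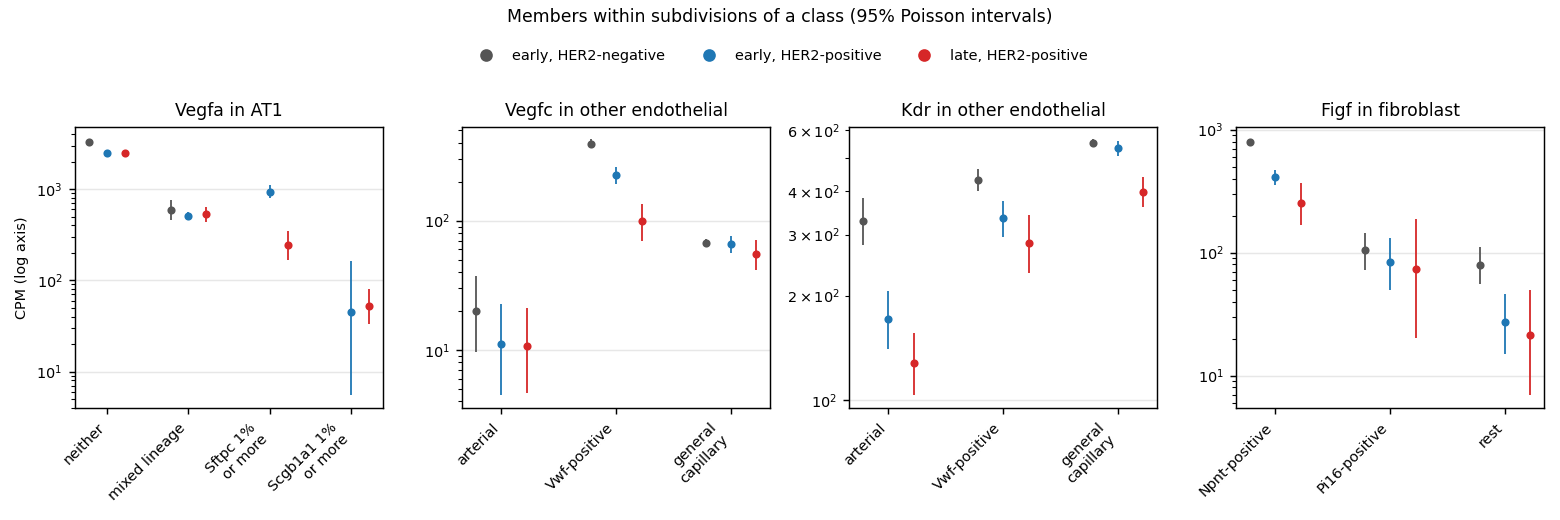
CPM (log axis) of Vegfa in subdivisions of AT1 cells, of Vegfc and Kdr in subdivisions of other endothelial cells, and of Figf in subdivisions of fibroblasts, by library, with 95% Poisson intervals. Vegfa is highest in AT1 cells with neither a second lineage nor 1% Sftpc or Scgb1a1 (3273, 2466 and 2498 CPM), Vegfc in Vwf-positive cells and Figf in Npnt-positive fibroblasts.

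Kdr, the main signalling receptor for VEGF-A, was highest in aerocytes in every library. Aerocytes held 2008 CPM early negative, 1744 CPM early positive and 1177 CPM late. Other endothelial cells held 530, 444 and 279 CPM. After each cell was thinned to 1000 UMIs, 72.0%, 78.1% and 55.8% of aerocytes and 39.1%, 35.5% and 26.4% of other endothelial cells had a Kdr UMI, against unthinned shares of 90.8%, 96.2% and 96.1% and of 71.4%, 70.3% and 62.4%. In AT2 cells, which should lack Kdr, the thinned share was 0.482% early and 0.300% late, and in late mammary cells 0 of 161. Within other endothelial cells, general capillary cells held 551, 533 and 399 CPM, and arterial cells 329, 171 and 127 CPM. The order of libraries was the same in general capillary, Vwf-positive and arterial cells, but arterial cells were 2.63%, 9.78% and 25.4% of the class.

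Flt1, the high-affinity receptor for VEGF-A and VEGF-B, was near even over endothelium. Other endothelial cells held 1034, 982 and 990 CPM and aerocytes 858, 856 and 1010 CPM in the early negative, early positive and late positive libraries. The late endothelial classes did not differ beyond their counting error. Mural cells held 19.8, 40.4 and 61.4 CPM, where 6 endothelial markers summed to 53.3, 53.4 and 34.2 CPM. Pericytes held 31.3, 40.9 and 64.5 CPM of Flt1 and smooth muscle cells 7.68, 40.1 and 58.6 CPM. AT1 cells held 136 CPM early and 77.8 CPM late, but in AT1 cells with neither a second lineage nor surfactant or club RNA Flt1 was 3.23 and 2.63 CPM.

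Flt4, the receptor for VEGF-C and VEGF-D, was found in blood endothelium at 80.6, 56.1 and 63.9 CPM in other endothelial cells and at 73.7, 63.0 and 92.9 CPM in aerocytes. Lymphatic endothelial cells, marked by Prox1 and Mmrn1, were almost absent, with 7 cells in the early negative library and 1 in the late library. Those 7 cells held 745 CPM of Flt4 (23 counts, interval 472 to 1117), 842 CPM of Kdr and 1004 CPM of Nrp2. Their number is too small for more than a description, and rests on Prox1 and Mmrn1 alone. The highest of the 4 listed lymphatic markers, which also include Reln and Lyve1, stood at 618, 1045 and 1883 CPM in other endothelial cells of the 3 libraries. Fibroblasts had 0 Flt4 counts in each library and mural cells at most 2.

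Nrp1, the co-receptor that binds VEGF-A beside Kdr, reached 2669, 2423 and 1955 CPM in aerocytes and 1356, 1148 and 1084 CPM in other endothelial cells. It was also widespread outside vessels. Fibroblasts held 676, 528 and 379 CPM, AT2 cells 411 CPM early and 379 CPM late, and mural cells 269, 356 and 275 CPM. Late mammary cells stood apart with 12.4 CPM. AT2 cells held 71.4% of all Nrp1 counts of the late library, of which they were 66.5% of cells. Within mural cells Nrp1 was higher in smooth muscle cells (364, 485 and 433 CPM) than in pericytes (180, 152 and 98.6 CPM).

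Nrp2, the co-receptor paired with Flt4 and a receptor for class 3 semaphorins, stood higher in fibroblasts and mural cells than in either endothelial class as a whole. Fibroblasts held 227, 121 and 120 CPM and mural cells 125, 123 and 166 CPM in the 3 libraries. AT1 cells held 116 CPM early and 85.6 CPM late. Aerocytes held between 17.8 and 27.6 CPM. In contrast with Nrp1, Nrp2 was higher in pericytes (173, 185 and 229 CPM) than in smooth muscle cells (74.3, 84.8 and 110 CPM). Among the arterial, Vwf-positive and general capillary cells it was highest in Vwf-positive cells, with 144, 88.9 and 59.8 CPM, below the 1004 CPM of the 7 lymphatic cells.

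Aerocytes were compared with other endothelial cells, which include arterial and Vwf-positive cells, within each library, so that the library is shared. Depth is not shared: aerocytes had median UMIs of 3943, 4682 and 6813, against 2932, 3529 and 5008 in other endothelial cells. In general capillary cells alone, Kdr stood above its value over the whole other endothelial class in each library, as given above. A gene is called past the fold at a ratio of at least 1.5 in either direction with at least 10 counts over the pair. Kdr was 3.79-fold (95% exact conditional interval 3.67 to 3.91), 3.93-fold (3.71 to 4.15) and 4.22-fold (3.80 to 4.69) higher in aerocytes than in other endothelial cells of the early negative, early positive and late positive libraries. Nrp1 was 1.97-fold, 2.11-fold and 1.80-fold higher. Vegfa went the other way, with ratios of 0.356, 0.420 and 0.580. Flt1 stayed between 0.830 and 1.02 and passed the fold in none of the 3 libraries. Vegfc was lower in aerocytes of both early libraries, at 0.404 and 0.441, and higher in the late one at 1.66 (interval 1.16 to 2.34). Nrp2 stood at 0.433 and 0.573 in the early libraries and at 1.13 in the late one, where its interval of 0.631 to 1.92 held 1.

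In the early negative library 3 members were higher in aerocytes, against 10.3% of all genes tested, and 3 were lower, against 13.4%. The early positive library gave 2 higher (9.59% of all genes) and 3 lower (16.3%), and the late library 4 higher (14.6%) and 1 lower (15.3%). Figf was among the higher members in the early negative library at 1.58 and in the late library at 2.76 from 11 counts in all. In the early negative library its ratio was 1.16 without mixed lineage cells, and its log2 ratio was -0.80 without the cells of highest doublet score.

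**Figure D3:**
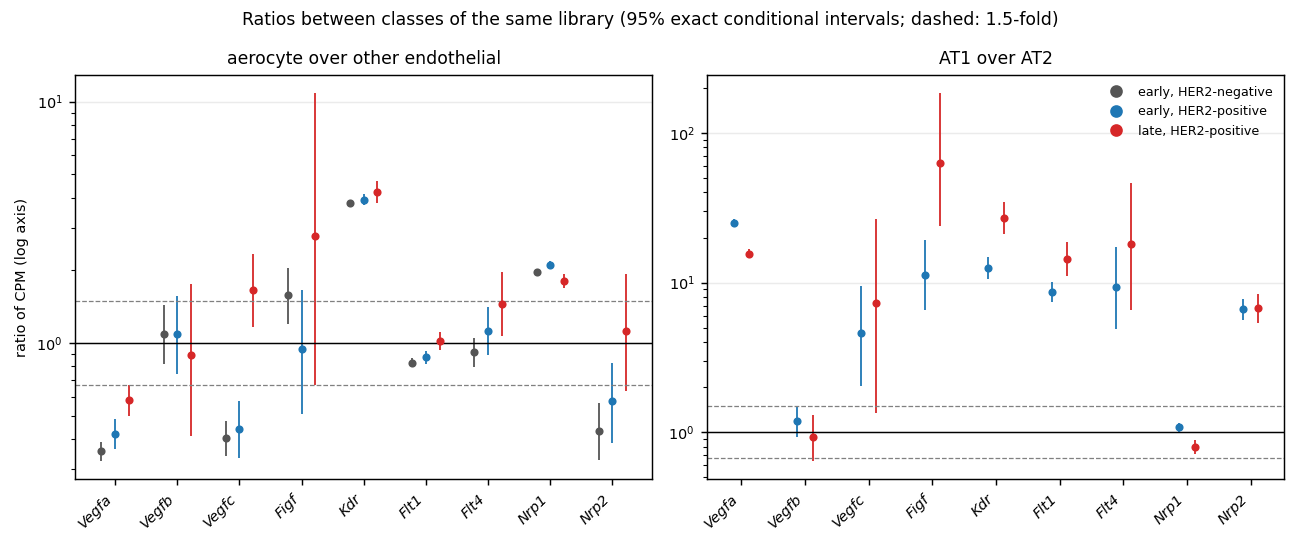
Ratio of CPM (log axis) of each gene between classes of the same library, aerocyte over other endothelial on the left and AT1 over AT2 on the right, coloured by library, with 95% exact conditional intervals and dashed lines at 1.5-fold. Kdr (3.79, 3.93 and 4.22) and Nrp1 lie above the upper line in all 3 libraries on the left and Vegfa below the lower one, and Vegfa lies at 24.99 and 15.6 on the right.

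AT1 cells were compared with AT2 cells as the thin gas-exchange cells against the surfactant-making cells. Vegfa was 24.99-fold higher in AT1 cells of the early positive library (interval 23.4 to 26.8) and 15.6-fold higher in the late one (14.5 to 16.7). Without mixed lineage cells the ratios were 44.1 and 17.4. Nrp2 was 6.61-fold and 6.75-fold higher, and 12.9-fold and 7.70-fold higher without mixed lineage cells. Vegfb (1.19 and 0.931) and Nrp1 (1.08 and 0.801) did not pass the fold. In each library 7 of 9 members were higher, against 57% of all genes early and 42% late, and 0 were lower, against 9.21% and 12.2%. The other 5 of those 7 were Vegfc, Figf, Kdr, Flt1 and Flt4, which are transcripts of endothelium or fibroblasts. Endothelial markers summed to 1418 CPM in early and 862 CPM in late AT1 cells, against 157 and 58.4 CPM in AT2 cells. Without mixed lineage cells Flt1 stood at 1.59 (interval 0.186 to 6.17) and 1.06 (0.0261 to 6.31), and Nrp1 was lower in AT1 cells of the late library at 0.376. Kdr stood at 2.60 (0.511 to 8.23) early and remained high at 26.4 (14.5 to 47.0) late, where AT1 cells held 23.2 CPM. With the dominant genes out of the denominator all AT1 over AT2 log2 ratios moved by -0.52 early and -0.21 late.

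Mammary cells of the late library were set against AT2 cells of that library. Vegfa was 1.75-fold higher in mammary cells (interval 1.57 to 1.95), while Nrp1 was lower with a ratio of 0.0328 (0.0240 to 0.0438), Nrp2 with 0.0853 and Kdr with 0.135. Vegfb stood at 1.34 and Flt1 at 0.703 from 14 mammary counts, of which 78.6% came from 1 cell. Of 6 members tested 1 was higher, against 46.5% of all genes, and 3 were lower, against 21%. Vegfc, Figf and Flt4 had 0 counts in mammary cells and at most 14 in AT2 cells. The Vegfa difference depends on the denominator. With 32 dominant or mitochondrial genes out of the total the log2 ratio was 0.22 in place of 0.81, a shift of -0.59 that all genes share. Without mixed lineage cells, Nrp1 stood at 0.00437, while Kdr stood at 0.741 (interval 0.0859 to 2.91).

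The early positive library was compared with the late one in 6 classes, which addresses stage as far as 1 library each allows. In other endothelial cells Vegfa was lower early (299 against 523 CPM, ratio 0.571, interval 0.529 to 0.618) and Kdr higher (444 against 279 CPM, ratio 1.59, interval 1.46 to 1.74). Vegfc was 1.89-fold (1.52 to 2.37) and Figf 3.94-fold (1.68 to 11.2) higher early. Flt1 was level at 0.993 (0.944 to 1.04), as was Nrp1 at 1.06. These 3 higher members compare with 12.2% of all genes and the 1 lower with 6.88%. Of the 3, Figf rested on 49 early and 6 late counts. Figf stood at 10.3 CPM early and 2.63 CPM late, against 10.2 and 9.06 CPM in near-empty barcodes, from which background RNA was read. The early Figf level was 5.94 CPM without mixed lineage cells and 10.35 CPM with background taken off. Vegfa was lower early in each subdivision: 450 against 620 CPM in arterial, 265.5 against 541 CPM in Vwf-positive and 290 against 487 CPM in general capillary cells. Kdr was higher early in each: 171 against 127 CPM, 334 against 284 CPM and 533 against 399 CPM. Vegfc did not follow this pattern. By the values given above it was higher early in Vwf-positive cells, while arterial values were close and general capillary intervals overlapped. Arterial cells, low in Vegfc, were a larger share of the late class, and the part of this mix in the Vegfc ratio was not tested.

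Aerocytes showed the same direction for Vegfa, at 125 CPM early and 303 CPM late (ratio 0.414, interval 0.341 to 0.502). Kdr was 1.48-fold higher early (1.37 to 1.60), just under the fold. Vegfc was lower early in aerocytes, at 37.2 against 74.0 CPM (0.503, interval 0.343 to 0.741), which is the reverse of other endothelial cells taken as a whole. Vegfb was counted as higher at 1.51, but from 11 late counts and with an interval of 0.763 to 3.25 that holds 1. Among aerocytes 1 member was higher, against 12.8% of all genes, and 2 lower, against 10.9%. The late value rests on 77 cells. Without mixed lineage cells the Vegfa ratio was 0.438.

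**Figure D4:**
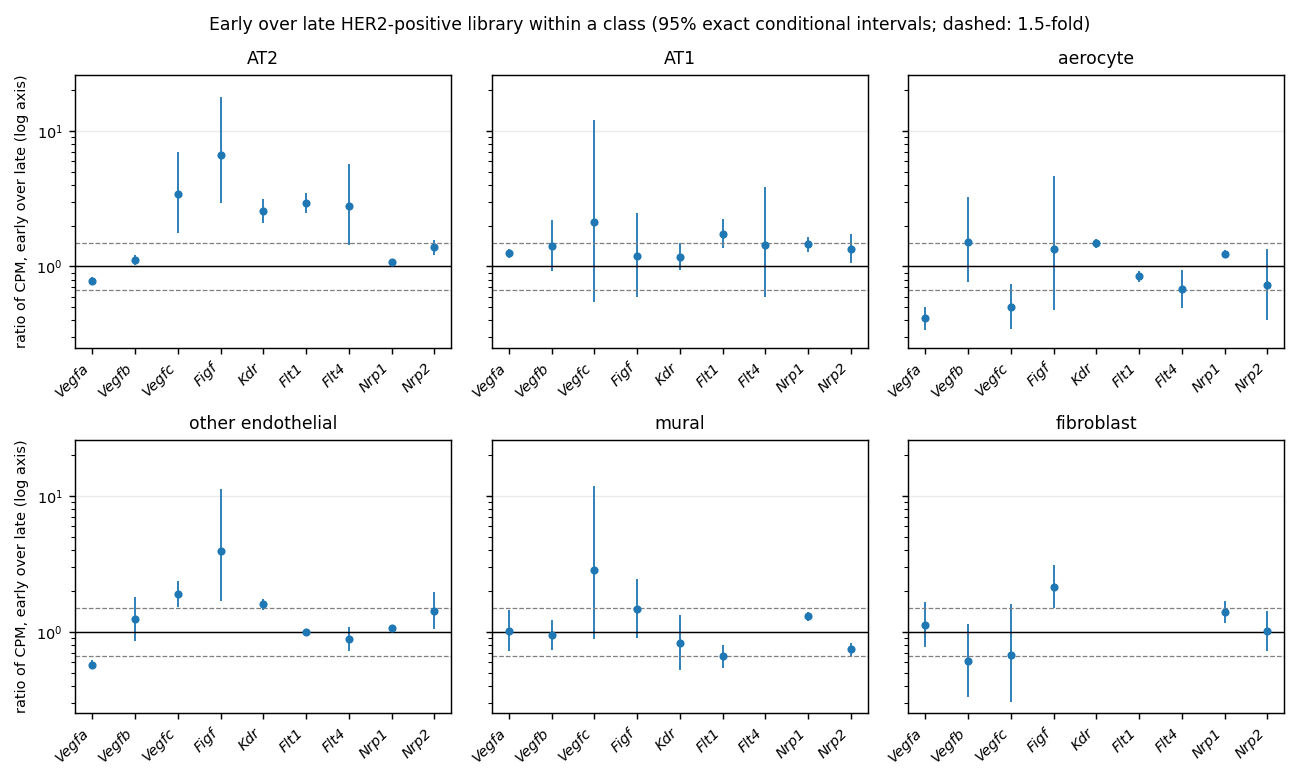
Ratio of CPM (log axis) of the early over the late positive library for each gene with at least 10 counts, by cell class, with 95% exact conditional intervals and dashed lines at 1.5-fold. Vegfa lies below 1 in aerocytes (0.414) and other endothelial cells (0.571), Figf above 1 in fibroblasts (2.13), and Vegfc on opposite sides in aerocytes and other endothelial cells.

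In AT2 cells 5 of 9 members were higher early, against 15.3% of all genes, and 0 were lower, against 3.66%. These were Vegfc, Figf, Kdr (10.2 against 4.02 CPM, ratio 2.54), Flt1 (15.7 against 5.38 CPM, ratio 2.92) and Flt4, each below its own level in near-empty barcodes. Kdr stood at 90.7 CPM in near-empty barcodes of the early library and 29.0 CPM in those of the late library. With 10% of each class total taken off in the proportions of those barcodes, the Kdr ratio was 1.03 (interval 0.623 to 1.65). The same step left Flt1 at 8.01 CPM early and 0 late, Vegfc at a ratio of 7.72 (2.48 to 28.9) and Flt4 at 1.98 (0.792 to 5.15), so 3 of the members were still past the fold. Without the cells of highest doublet score the Kdr ratio was 0.640. Vegfa, by contrast, was 0.778 (0.727 to 0.832) and Nrp1 1.08, and neither passed the fold.

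In AT1 cells Vegfc (2.14, interval 0.550 to 12.1) and Flt1 (1.74, 1.36 to 2.25) were higher early, 2 members against 34.1% of all genes, and 0 were lower, against 5.38%. Vegfa stood at 1.25. Without mixed lineage cells it was 1.93, with the late class still holding club cells, and between the AT1 cells with neither admixture it was 2466 against 2498 CPM. With the dominant genes out of the denominator the log2 ratio of Vegfa was -0.0094 in place of 0.32, a shift of -0.33 that all genes share.

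In mural cells Flt1 was lower early, at 40.4 against 61.4 CPM (0.659, interval 0.542 to 0.7995). Vegfc was counted as higher at 2.84 from 13 and 4 counts, with an interval of 0.877 to 11.9. That is 1 higher, against 12% of all genes, and 1 lower, against 6.28%. Nrp2 stood at 0.743 and Nrp1 at 1.30, both inside the fold. In fibroblasts Figf was 2.13-fold higher early (198 against 92.8 CPM, interval 1.503 to 3.097) and Vegfb was 0.605, with an interval of 0.332 to 1.14. There 1 member was higher, against 16.7% of all genes, and 1 lower, against 15.3%.

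The early positive and negative libraries, which differ in the sort, had few members past the fold in endothelium. They share the early positive cells with the stage comparison, so the results are not independent of it. In other endothelial cells 0 of 9 members were higher, against 14.9% of all genes, and 0 lower, against 7%. These counts are near the shares over all genes and do not show likeness. The members' ratios ran from 0.696 (Flt4, interval 0.607 to 0.797) to 1.28 (Vegfb, 1.004 to 1.61). Vegfa stood at 0.734 (0.692 to 0.778), Kdr at 0.838 (0.798 to 0.879) and Flt1 at 0.9504 (0.919 to 0.982). The median log2 ratio of the members was -0.26, against 0.03 over all genes tested. In aerocytes 0 were higher, against 9.05%, and 1 lower, against 8.61%. That member was Figf at 0.420, which turned to a log2 ratio of 0.38 without the cells of highest doublet score.

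Fibroblasts had 5 members past the fold between the sorts. Figf was lower in the positive library (198 against 640 CPM, ratio 0.309, interval 0.269 to 0.352), as were Nrp2 (0.533, 0.445 to 0.636), Vegfa (0.581, 0.477 to 0.703) and Vegfb (0.644, 0.430 to 0.940). These 4 lower members compare with 13.6% of all genes, and 1 higher, Kdr from 6 and 9 counts, with 17.6%. Among Npnt-positive fibroblasts alone Vegfa was 216 against 154 CPM and Nrp2 279 against 211 CPM in the negative and positive libraries, smaller gaps than over the class. The share of Npnt-positive cells among fibroblasts moved with these values, and its part in them was not tested. In mural cells Flt1 was 2.04-fold higher in the positive library (interval 1.22 to 3.64), 1 member against 14.2% of all genes. Vegfc, Figf and Kdr were lower from at most 47 counts each, 3 members against 10.7%. Their values in the negative library, 8.68, 19.8 and 17.4 CPM, lay below their own levels in near-empty barcodes there. With background taken off the log2 ratio of Figf was 0.23, the other direction.

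The wider pathway was read from 6 lists of 64 genes in all. Pgf, the placental ligand of Flt1, was highest in mural cells, with 107, 199 and 120 CPM in mural cells of the early negative, early positive and late positive libraries. The next highest value in a class of at least 50 cells was 35.1 CPM, in late fibroblasts. Pgf was 1.66-fold higher early than late in mural cells and 1.87-fold higher in the positive than the negative library. Mammary cells held 29.5 CPM of Pgf, a ratio of 35.9 over AT2 cells of the late library.

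Semaphorins, some of which compete with VEGF for neuropilins, stood high in AT1 cells. Sema3e was 174.5-fold and 88.7-fold, and Sema3a 90.3-fold and 84.5-fold, higher in AT1 than in AT2 cells of the early and late positive libraries. Mixed lineage cells, 42.0% of early and 17.6% of late AT1 cells, were kept in the AT1 values given here. Of the 8 genes listed with other ligands and semaphorins 8 were higher in AT1 cells early and 7 of 7 tested late, against 57% and 42% of all genes, with median log2 ratios of 3.15 and 4.21 against 0.71 and 0.42 over all genes. In fibroblasts 6 of 7 tested were higher in the positive than the negative early library, against 17.6% of all genes, with a median log2 ratio of 1.58 against 0.04 over all genes. Sema3b led these at 8.10-fold (79.5 against 9.81 CPM). The share of Npnt-positive cells among fibroblasts differed between these libraries, as given above, and its part in this list was not tested.

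Some genes known to respond to VEGF in endothelium differed between aerocytes and other endothelial cells. Apln, the apelin ligand, was 34.2-fold, 12.7-fold and 16.4-fold higher in aerocytes than in other endothelial cells of the 3 libraries. Esm1, a tip cell gene, stood at 173 CPM in late other endothelial cells against 14.5 CPM in late aerocytes. Of the 13 genes of that list 3 were higher in aerocytes and 6 lower of 12 tested in the early negative library (10.3% and 13.4% of all genes), 2 and 6 of 12 in the early positive library (9.59% and 16.3%) and 2 and 5 of 11 in the late library (14.6% and 15.3%). Between the early and late positive libraries, other endothelial cells had 2 of 12 higher and 1 lower. The 14 co-receptors and receptor partners had 1 of 13 higher and 0 lower in that comparison, and the 19 signal relay genes 2 of 18 higher and 1 lower. These counts lie near the shares of 12.2% higher and 6.88% lower over all genes there, and show nothing particular to the lists. The lower relay gene was Nos3, endothelial nitric oxide synthase, at 29.95 CPM early against 58.2 CPM late (0.515, interval 0.403 to 0.657).

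Oxygen-sensing genes, which regulate Vegfa, were read beside it. Epas1, the HIF-2 alpha gene, held 2320 CPM early and 2064 CPM late in other endothelial cells (ratio 1.12), and Hif1a 58.4 and 60.8 CPM (0.960). Of the 8 oxygen genes 0 of 6 tested passed the fold in other endothelial cells early over late, which with 12.2% and 6.88% of all genes past it is near the background. In mammary cells Egln3, a HIF prolyl hydroxylase gene, stood at 329 CPM against 0.847 CPM in AT2 cells, a ratio of 389. Epas1 was lower there at 0.0871 and Hif1a stood at 0.757. Neither ligand processing gene, Adamts3 or Ccbe1, could be tested in other endothelial cells between stages.

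The likeness of each gene to 6353 other genes was described by Pearson's r of log2(CPM + 1) over the 17 points of class and library with at least 50 cells. These points share libraries, and the classes set most of the spread. Flt4 was closest to Pecam1 (0.997), Gimap5 and Ccm2l, and Kdr to Rprml (0.986), Icam2 and Krt80. Flt1 was closest to Caskin2 (0.983), Gpr182 and Adcy4, and Nrp1 to Hdac7 (0.9548), Nkd1 and Gsdmd. Figf was closest to Mfap4 (0.982), Scube2 and Col13a1, Vegfc to Hmcn1 (0.979), Ackr3 and Csf1, and Nrp2 to Ctgf (0.969), Fhl1 and Parp3. Vegfa was closest to Ppp3ca (0.917), Pgap2 and Arhgef26, and Vegfb to Sesn3 (0.893), Txnrd1 and Echdc2.

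Among the 9 genes the 3 kinase receptors were most alike, at 0.9547 for Kdr and Flt1, 0.963 for Kdr and Flt4 and 0.963 for Flt1 and Flt4. Nrp1 stood at 0.744 with Kdr, and Nrp2 at 0.733 with Figf. Vegfa was at 0.499 with Kdr and 0.460 with Flt1. Vegfb ran against the receptors, at -0.80 with Kdr and -0.82 with Flt1.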

How the data were processed

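The deposited files hold raw counts of UMIs per gene and barcode for all barcodes, mapped to mm10 per the submitters' processing notes, with matrix software version 3.1.0 per the file headers. The gene annotation the authors used is not given in the sources used here. No barcode had been filtered by the authors, so the cell filter described above was applied here. Total counts were 25610135, 49248126 and 54961019 for the early HER2-negative, early positive and late positive libraries. Counts were summed per class and library and divided by all UMIs of the class.

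Levels carry exact Poisson intervals, ratios exact conditional binomial intervals and shares of cells Clopper-Pearson intervals, all at 95% and covering counting error only. With 1 library per group, cells were not used as replicates and no p-value was computed. A side with 0 counts was set to 3 counts as a bound. Shares were also taken after thinning each cell to 1000 UMIs. Background RNA was read from barcodes with 1 to 100 UMIs. Doublets were scored with Scrublet in scanpy 1.11.5 and left in, except in an alternative that removed 0.8% per 1000 barcodes. The ratio calculation was tested on simulated data. Python 3.11.15, numpy 2.4.6, scipy 1.17.1 and pandas 2.3.3 were used.

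Named besides the 9 genes were Pgf, Hif1a, Epas1, up to 3 pathway genes per comparison with the largest ratio past the fold, and the 3 genes most like each member among those with at least 50 CPM at some point. The members, lists and rules were chosen with earlier results of these data known. The alternatives tried were other filters, class rules, doublet and background handling, denominators, weights and folds. Subdivisions of AT1 cells and fibroblasts and the removal of mixed lineage cells were added after values were seen.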

Additional observations from a re-analysis of the deposited data

Results flagged for a closer look

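Vegfc, the Flt4 ligand, differed in direction between classes when the early was set over the late HER2-positive library. Its log2 ratio was 1.77 in AT2 cells, from 35 and 13 counts, and 0.918 in other endothelial cells, but -0.991 in aerocytes. Flt1 did so as well, with log2 ratios of 1.54 in AT2 cells and 0.802 in AT1 cells against -0.603 in mural cells. In each case both sides passed 1.5-fold in opposite directions. In AT2 cells both genes lay below their level in near-empty barcodes. Among other endothelial cells, Vegfc was higher early in Vwf-positive cells, while arterial values were close and general capillary intervals overlapped, as given above. The share of arterial cells also differed between the 2 libraries. Without mixed lineage cells Flt1 held 1.54 CPM early and 0.996 CPM late in AT2 cells, against 15.7 and 5.38 CPM with them. In AT1 cells Flt1 held 2.45 and 1.06 CPM without them, against 136 and 77.8 CPM with them. The difference between classes was not tested, since each library is a single sample.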

How the results depend on the processing

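Under the 10 alternatives able to change a ratio, 1182 ratios took another value. Of these, 1015 stayed within the counting interval of the reported ratio and 160 moved outside it. The other 7 were past the fold as reported and changed sign. Sign changes of ratios inside the fold are counted among the 1015 or the 160. Except where stated, the cause was not tested. The log2 ratio of Kdr in AT2 cells, early over late, was -0.787 without cells that met several class rules and -0.6432 without the highest doublet scores, which also gave -1.021 for Flt4 there. Figf took a log2 ratio of 0.3771 in aerocytes, HER2-positive over HER2-negative, and of -0.7992 in HER2-negative aerocytes over other endothelial cells without the highest doublet scores, the latter -0.05252 with class thresholds doubled. Figf in mural cells, HER2-positive over HER2-negative, was 0.2279 with background taken off. For HER2-positive over HER2-negative, the 2 higher calls became 1 with a minimum of 2000 UMIs, with under 10% mitochondrial UMIs, without the highest doublet scores and at a fold of 2, and 4 with background taken off. The 8 lower calls there became 5 with background taken off and 4 at a fold of 2. The 5 lower calls of early over late became 8 without the highest doublet scores and 1 at a fold of 2. The 14 higher and 0 lower calls of AT1 over AT2 became 5 and 1 without cells that met several rules and 8 and 1 without mixed lineage cells, with fewer genes tested. The 9 higher calls of aerocytes became 5 at a fold of 2, and the 1 higher call of mammary cells became 0 at a fold of 2 and with the dominant genes out of the denominator. Leaving out cells that met several rules was not run for the 5 aerocyte comparisons, nor doubled thresholds for the 2 with late aerocytes, as under 50 cells remained. No paired analysis was possible because each group holds 1 library. Depth limits Figf, Vegfc and Flt4 outside their main classes to a few counts.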
